A study of Mus musculus with 40 samples.

Results

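The 10 immediate early genes were followed across all kidneys of a TCDD dose series: Fos, Fosb, Jun, Junb, Egr1, Atf3, Nr4a1, Dusp1, Zfp36 and Klf4. They were a list of 10 symbols matched to Ensembl mouse identifiers, out of 55359 genes listed in the count files. All 10 passed the filter on low counts, as did 17345 genes in total. The study gave TCDD (2,3,7,8-tetrachlorodibenzo-p-dioxin, a ligand of the aryl hydrocarbon receptor) or its sesame oil vehicle to male C57BL/6 mice by oral gavage. Doses were given every 4 days for 28 days, 7 times, from an age of 30 days to an age of 58 days. The 8 groups of 5 mice received vehicle or 0.03, 0.1, 0.3, 1, 3, 10 or 30 µg/kg, and all were killed with CO2, with gavage and tissue collection between ZT0 and ZT3. Bulk RNA was sequenced from about 100 mg of frozen right kidney per mouse, each RNA preparation had a RIN (RNA integrity) of 7 or more, and each library is 1 mouse.

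Immediate early genes are transcribed within minutes of a stimulus, from promoters that need no newly made protein, and their mRNAs are short-lived. Serum response factor with its ternary complex partners, and CREB at cyclic AMP response elements, are the classic switches upstream, reached through MAP kinase and calcium signalling. In kidney they are known for rapid induction by ischaemia, stretch and growth factors. Of the members, Fos, Fosb, Jun and Junb encode subunits of the transcription factor AP-1. Egr1, Atf3, Nr4a1 and Klf4 encode other transcription factors: a zinc finger protein, a stress-induced bZIP factor, an orphan nuclear receptor and a Krüppel-like factor. Dusp1 and Zfp36 act in feedback, the first as a phosphatase that inactivates MAP kinases and the second as a protein that binds AU-rich mRNAs and promotes their decay.

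The promoters of 9 of the 10 members were matched in RefSeq (build GRCm38.p6), and 5 are shown because they belong to the genes on which the results turn. Fos, Fosb and Nr4a1 were among the 4 genes furthest above the other libraries in a single library, and Dusp1 and Zfp36 varied together from library to library. Each is the 250 bases before the transcription start, 5′ to 3′ on the gene's own strand. Capitals mark matches, on either strand, to the cyclic AMP response element TGACGTCA, to its core TGACG (which the full element contains) and to the CArG box bound by serum response factor.
Fos, chr12:85473640-85473889, plus strand: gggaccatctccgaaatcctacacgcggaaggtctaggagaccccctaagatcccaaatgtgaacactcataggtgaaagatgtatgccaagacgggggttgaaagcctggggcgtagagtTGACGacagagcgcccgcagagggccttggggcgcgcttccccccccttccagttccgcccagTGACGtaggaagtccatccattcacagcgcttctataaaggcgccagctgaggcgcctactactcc
Fosb, chr7:19310046-19310295, minus strand: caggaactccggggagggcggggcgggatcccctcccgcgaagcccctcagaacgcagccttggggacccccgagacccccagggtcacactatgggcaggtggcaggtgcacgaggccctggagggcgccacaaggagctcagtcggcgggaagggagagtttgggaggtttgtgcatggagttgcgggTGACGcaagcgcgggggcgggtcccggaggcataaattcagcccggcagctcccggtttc
Nr4a1, chr15:101266596-101266845, plus strand: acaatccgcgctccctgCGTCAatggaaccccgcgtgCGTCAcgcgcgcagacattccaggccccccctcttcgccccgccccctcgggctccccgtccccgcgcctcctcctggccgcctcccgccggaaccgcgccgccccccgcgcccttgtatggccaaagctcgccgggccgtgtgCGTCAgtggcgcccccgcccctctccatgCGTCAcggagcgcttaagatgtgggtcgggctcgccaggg
Dusp1, chr17:26508473-26508722, minus strand: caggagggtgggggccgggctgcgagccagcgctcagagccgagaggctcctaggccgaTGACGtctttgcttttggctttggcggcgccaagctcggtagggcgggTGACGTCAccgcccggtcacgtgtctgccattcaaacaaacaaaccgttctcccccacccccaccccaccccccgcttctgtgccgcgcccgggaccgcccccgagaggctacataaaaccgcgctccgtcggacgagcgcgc
Zfp36, chr7:28379229-28379478, minus strand: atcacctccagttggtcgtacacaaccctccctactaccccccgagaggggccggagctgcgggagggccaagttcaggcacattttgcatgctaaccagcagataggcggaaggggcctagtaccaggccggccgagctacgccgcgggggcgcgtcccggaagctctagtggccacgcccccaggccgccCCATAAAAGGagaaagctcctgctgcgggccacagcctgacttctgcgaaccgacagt

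The core TGACG lay in 7 of the 9 windows (Fos, Fosb, Junb, Atf3, Nr4a1, Dusp1 and Klf4), against 17.8% of all 32851 promoter windows of the same length. Nr4a1 held 4 copies and Fos 2. The full element was found in Dusp1 alone of the 9, from 143 to 136 bases before the start, and in 1.55% of all windows. A CArG box, CCATAAAAGG, was found in Zfp36 alone of the 9, from 58 to 49 bases before the start, and in 1.47% of all windows. The AP-1 site TGANTCA was in 0 of the 9 windows and in 6.75% of all. The core of the dioxin response element, GCGTG, was in 5 of the 9 (Fos, Junb, Atf3, Nr4a1 and Zfp36) and in 28.2% of all. These are matches of letters in one window and say nothing of binding.

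Gene counts summed to between 15278423 and 25575317 per library. Libraries are named by group and by a replicate number in order of deposition, since the labels give only mouse numbers. The labels' doses were checked with Cyp1a1, a direct target of the receptor, with a mean of 2.37 ± 1.25 CPM (CPM, counts scaled to library size; SD, n = 5) for vehicle, 24.7 ± 6.37 CPM in the 0.3 µg/kg group and 2537 ± 436 CPM in the group of the highest dose. The tissue label was checked with cell type markers: 6 proximal tubule genes summed to 7086 to 14438 CPM, and 3 hepatocyte genes to at most 17.0 CPM. Of all genes tested against vehicle with edgeR's quasi-likelihood test, calls at a Benjamini-Hochberg adjusted p under 0.05 made up 0% for each of the doses 0.03 and 0.1 µg/kg. The share was 0.00577% for 0.3 µg/kg, 0.513% for 1, 1.09% for 3, 4.82% for 10 and 15.9% for 30 µg/kg. Cyp1a1 was not called at 0.03 or 0.1 µg/kg (log2 fold change -0.099 and 1.23, edgeR, adjusted p = 0.986 and 0.877). It thus gives no check of the label of the lowest dose. Of the 10 members, 0 were called at any dose from 0.03 to 10 µg/kg, and 2 were called at 30 µg/kg. At an unadjusted p under 0.05, edgeR passed 4 members for 30 µg/kg (4789 of all 17345 genes), 2 for 10 (2728 genes), 1 for 1 (1231 genes) and 8 for the lowest dose (983 genes), and 0 for the other 3 (908 to 1553 genes).

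The level of a member per length of exon, in CPM per kilobase of exonic sequence in GENCODE M21, ordered them from Dusp1 to Fosb. Over the 40 libraries the medians were 11.4 for Dusp1, 8.93 for Zfp36, 7.68 for Jun, 6.45 for Junb and 3.24 for Klf4. They were 1.04 for Nr4a1, 1.00 for Egr1, 0.674 for Atf3, 0.392 for Fos and 0.0519 for Fosb. Within the vehicle group, the ranges of neighbouring genes overlapped from Dusp1 through Zfp36 and Jun to Junb, and again from Egr1 through Nr4a1 and Atf3 to Fos. Klf4 overlapped neither neighbour, and Fosb lay below every Fos value. The feedback genes and the JUN-type subunits were thus present in every control kidney at 9.27 CPM or more, while Fos and Fosb were below 1 CPM in all 5. Fos was at 1 count in its lowest library, and Fosb was at 0 counts in 4 libraries.

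**Figure D1:**
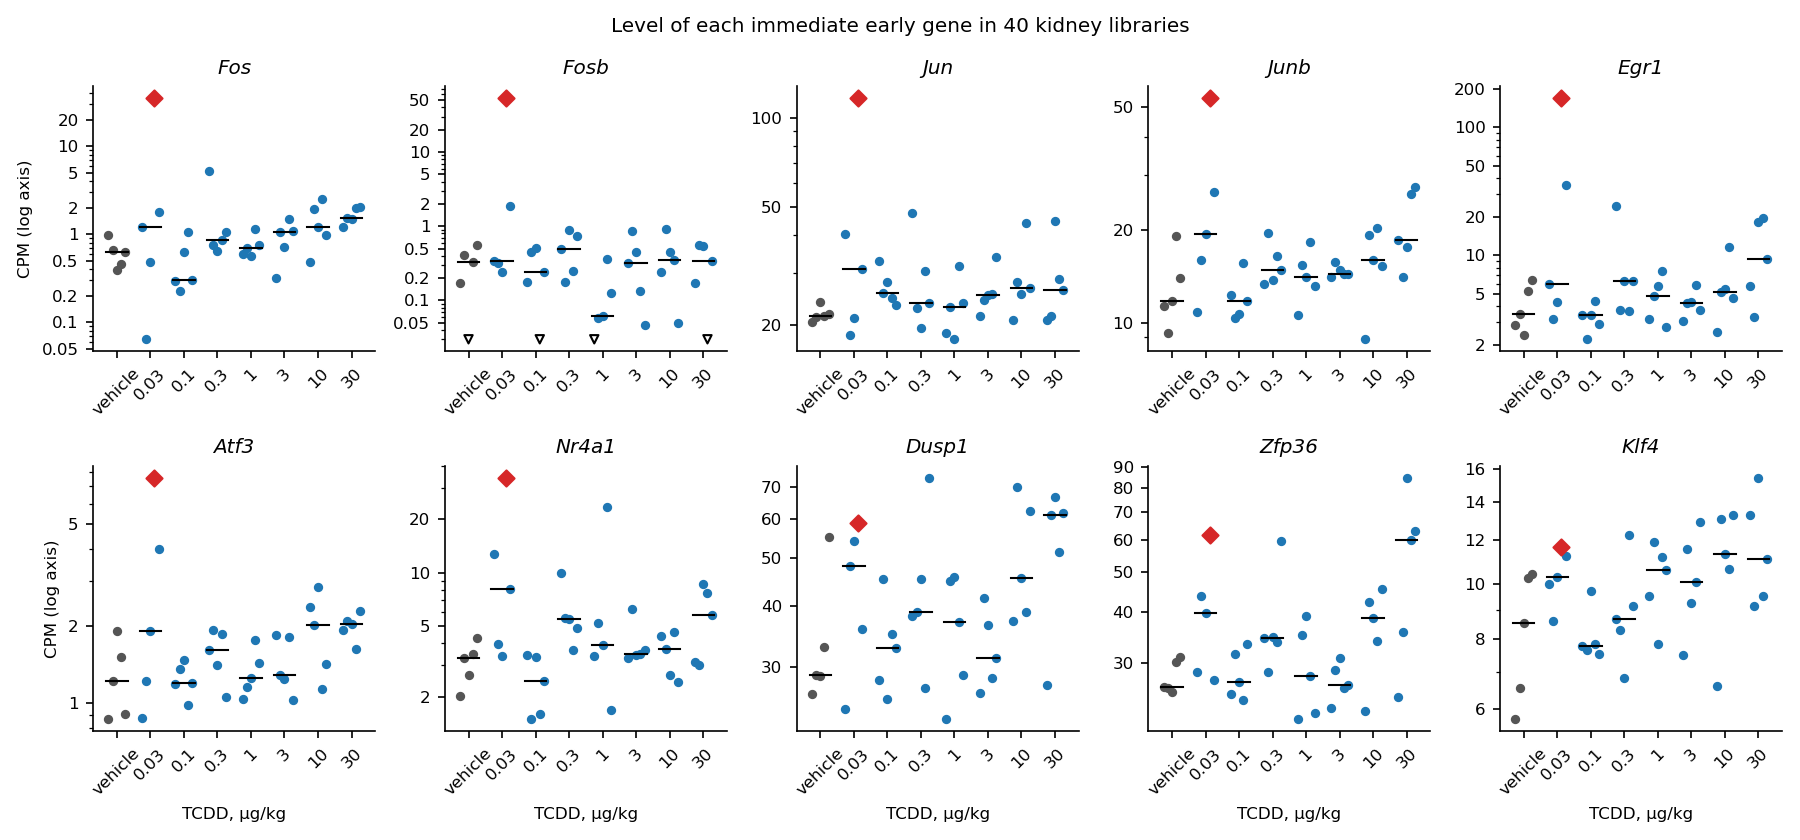
Level of each member in every library, in CPM on a log axis, by dose (vehicle in grey; bars, group medians). The red diamond is replicate 4 at 0.03 µg/kg, the highest of the 40 libraries for 7 of the 10 genes; open triangles for Fosb mark libraries at 0 counts.

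One library stood apart in these genes before any dose comparison. Replicate 4 at 0.03 µg/kg had the highest value of all 40 libraries for Fos, Fosb, Jun, Junb, Egr1, Atf3 and Nr4a1, 7 of the 10 members, whereas 1.95% of all tested genes had their highest value there. Fosb reached 53.4 CPM (1222 counts) in it, 167 times the median of the other 39 libraries. Fos reached 35.2 CPM (805 counts), 40.7 times that median, and Egr1 169 CPM (3866 counts), 38.6 times. Among all 17345 genes, Fosb, Egr1, Fos and Nr4a1 were the first 4 by their excess in log2 CPM over the median of the other libraries, at 6.97, 5.24, 5.18 and 3.20.

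The excess was smaller in the other members of that library. Nr4a1 was at 34.3 CPM (9.40 times the median of the others), Atf3 at 7.56 CPM (5.28 times), Jun at 116 CPM (4.78 times) and Junb at 53.3 CPM (3.60 times). The feedback genes and Klf4 stood within the range of other libraries: Zfp36 was 3rd of 40 at 61.5 CPM, Dusp1 7th at 59.0 CPM and Klf4 8th at 11.7 CPM. Dusp1, the gene with the highest median level per length, was 1.59 times the median of the others.

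Some other genes of the immediate early class were also high in replicate 4 at 0.03 µg/kg. Of 51 further immediate early genes and AP-1 partners tested, 10 had their highest value there, as did 1.95% of all tested genes. Replicates 3, 4 and 5 at 30 µg/kg held the highest value of 11, 8 and 6 of the 51, but of 2, 0 and 0 members. Their shares of all tested genes were 10.4%, 7.65% and 4.57%. Among the 10, named after their values were seen, are Btg2 (46.2 CPM, a growth-inhibitory early gene), Ier2 (28.6 CPM, an early nuclear protein), Egr2 (3.89 CPM, a relative of Egr1) and Ccn1 (92.9 CPM, a matrix signalling protein). In replicate 4 at 0.03 µg/kg the heat shock genes summed to 3632 CPM, between 1975 and 4936 CPM in the others. Its total of 23183777 gene counts and its mitochondrial share of 8.47% lay inside the range of the other libraries, and so did its summed level of all 17 cell type marker lists, adrenal and blood cells included. Replicate 5 at 0.03 µg/kg was second for Fosb (1.85 CPM), Egr1 (35.4 CPM) and Atf3 (4.00 CPM). In it 5 of 7 heat shock genes had their highest value, as did 2.03% of all tested genes. The part of the heat shock genes in the members' levels of replicate 5 was not tested.

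The members differed in how much they varied within groups. In vehicle, Jun was at 20.4, 21.2, 23.8, 21.4 and 21.8 CPM, a coefficient of variation of 5.82%, and Fos at 0.980, 0.659, 0.389, 0.460 and 0.623 CPM, a coefficient of 36.8% on 7 to 17 counts. Junb had 28.7% in vehicle, and at 30 µg/kg the order of Fos and Jun turned, to 21.3% and 34.6%. The SD of log2 CPM within groups was 1.42 for Fosb, 1.21 for Fos and 1.10 for Egr1, at percentiles 100, 99.8 and 99.3 of all tested genes. Without the 1 library described above these percentiles were 97.1, 89.4 and 90.9. Klf4 varied least, with an SD of 0.29, near the median of 0.25 over all genes.

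Zfp36 rose at 30 µg/kg, with the lowest adjusted p of the 10 members at that dose. It was at 26.3, 26.1, 25.6, 30.2 and 31.0 CPM in vehicle and at 24.9, 35.8, 84.8, 60.0 and 62.8 CPM at 30 µg/kg. At 30 µg/kg 4 of 5 libraries were above every vehicle library and 1 was below them all. This was a rise of 0.95 ± 0.25 log2 units (log2 fold change ± SE; edgeR, adjusted p = 0.00708). It was called in all 40 edgeR fits that left out 1 library each. Fitted on only those 10 libraries the estimate was also 0.95 and was not called by edgeR (adjusted p = 0.0891). At 10 µg/kg, Zfp36 was at 23.0, 42.2, 38.8, 33.9 and 45.6 CPM, with 4 of 5 above vehicle, and was not called by edgeR (0.40 ± 0.25 log2 units, adjusted p = 0.476).

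Klf4 also rose at 30 µg/kg, by less. Its levels were 5.76, 6.53, 8.55, 10.3 and 10.4 CPM in vehicle and 13.3, 9.16, 15.5, 9.54 and 11.1 CPM at 30 µg/kg, with 3 of 5 libraries above all of vehicle. The rise was 0.50 ± 0.18 log2 units (edgeR, adjusted p = 0.0498). This call sat at the threshold: it was lost in 30 of the 40 edgeR fits without 1 library, and in the 10 libraries of vehicle and 30 µg/kg alone edgeR's adjusted p was 0.165. Both genes together made 2 of 10 members called higher, against 8.39% of all genes called higher at this dose.

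Fos was the only member whose 5 libraries at 30 µg/kg all lay above all 5 of vehicle, which 3.59% of all tested genes did. Its levels at 30 µg/kg were 1.19, 1.53, 1.49, 1.96 and 2.02 CPM, against at most 0.980 CPM in vehicle. Its log2 fold change of 1.40 ± 0.90 was nevertheless not called by edgeR (adjusted p = 0.331). The spread in that fit is shared by all groups, and without replicate 4 at 0.03 µg/kg the standard error fell to 0.55 with the same fold change of 1.40 (edgeR, adjusted p = 0.0764). In the 10 libraries of the 2 groups alone Fos was called by edgeR (adjusted p = 0.0379).

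The remaining members were not called at 30 µg/kg, though all 10 estimates there were above 0, and their median was 0.66 log2 units against 0.01 over all genes. Egr1 was at 2.88, 3.50, 2.38, 5.26 and 6.40 CPM in vehicle and at 5.79, 3.28, 18.2, 19.6 and 9.40 CPM at 30 µg/kg. Its estimate of 1.47 ± 0.76 log2 units was the largest of the 10 (edgeR, adjusted p = 0.206). Without replicates 4 and 5 at 0.03 µg/kg, a choice made after seeing the data, Egr1 was called (1.47 ± 0.48, edgeR, adjusted p = 0.0345). Its groups overlapped, with 3 of 5 libraries above vehicle. Junb was at 11.4, 9.27, 11.8, 19.1 and 14.0 CPM in vehicle and at 18.5, 14.1, 17.6, 26.2 and 27.4 CPM at 30 µg/kg, a difference of 0.67 ± 0.27 log2 units (edgeR, adjusted p = 0.0944). The groups overlapped, with 2 of 5 libraries above all of vehicle. Without replicate 4 at 0.03 µg/kg the same change was called (0.67 ± 0.21, edgeR, adjusted p = 0.0213). Of its exonic bases, 7.52% also lie in Prdx2 on the opposite strand. Unstranded counts set reads there aside as ambiguous and give them to neither gene. Jun shares 7.28% of its exonic bases with Junos in the same way.

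Dusp1, the phosphatase, was at 26.3, 28.9, 28.7, 32.9 and 55.1 CPM in vehicle and at 27.6, 61.4, 66.8, 51.6 and 61.8 CPM at 30 µg/kg. The groups overlapped through 1 high vehicle library and 1 low treated library, and the log2 fold change of 0.65 ± 0.27 was not called by edgeR (adjusted p = 0.106). It was called without either of them: 0.88 without vehicle replicate 5 (edgeR, adjusted p = 0.0268) and 0.81 without replicate 1 at 30 µg/kg (edgeR, adjusted p = 0.0295). Nr4a1 was at 2.02, 3.29, 2.63, 3.48 and 4.31 CPM in vehicle and at 3.12, 3.00, 8.68, 7.63 and 5.77 CPM at 30 µg/kg, which also overlapped; the difference was 0.84 ± 0.56 log2 units (edgeR, adjusted p = 0.351). Atf3 was at 0.864 to 1.90 CPM in vehicle and at 1.63 to 2.29 CPM at 30 µg/kg, a difference of 0.63 ± 0.36 log2 units (edgeR, adjusted p = 0.260). Jun was at 20.7, 21.4, 44.8, 28.6 and 26.1 CPM at 30 µg/kg, with 3 of 5 libraries above all of vehicle. Fosb, at 0.173, 0.405, 0, 0.329 and 0.567 CPM in vehicle and 0.170, 0.566, 0.542, 0 and 0.344 CPM at 30 µg/kg, overlapped throughout. Jun and Fosb had the smallest estimates, 0.38 ± 0.33 and 0.16 ± 1.33, and edgeR's adjusted p was 0.515 and 0.959.

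In bulk kidney RNA, fewer cells of a type and less RNA per cell cannot be told apart, and marker lists also moved at 30 µg/kg. Of the endothelial markers 3 of 4 were called higher by edgeR, and their sum ranged from 334 to 393 CPM against 249 to 266 CPM in vehicle. Called higher were also 3 of 4 macrophage, 2 of 3 podocyte, 2 of 4 fibroblast and 3 of 4 urothelial markers. Of the proximal tubule markers 4 of 6 were called lower, with sums of 7086 to 12595 CPM against 11555 to 14438 CPM. Also called lower were Aqp3 and Hsd11b2 (principal cell), Pvalb (distal convoluted tubule) and Slc4a1 (intercalated cell). Myh11 (smooth muscle) was called higher. The other markers of those lists were not called or not tested. The part of the marker changes in the change of Zfp36 and Klf4 was not tested.

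**Figure D2:**
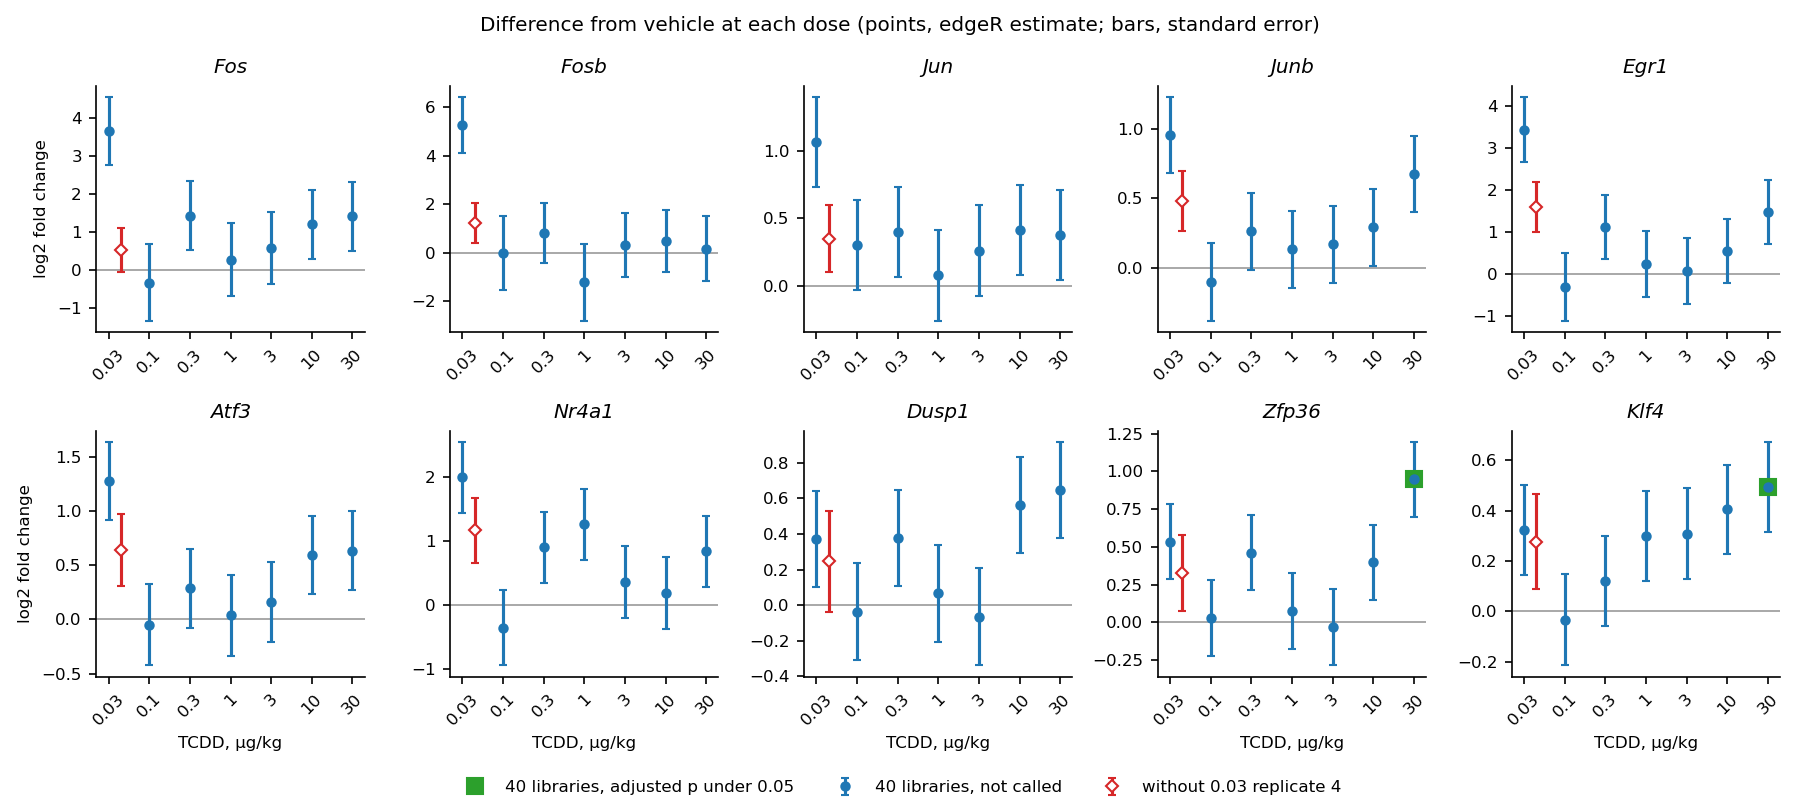
Log2 fold change of each member against vehicle at each dose, with the standard error (edgeR, all 40 libraries; green squares, adjusted p under 0.05). Open red diamonds give 0.03 µg/kg without its replicate 4: Fos falls from 3.64 to 0.52 and Fosb from 5.27 to 1.22.

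At the lowest dose the means of Fos, Fosb, Egr1 and Nr4a1 were far above vehicle, and 1 or 2 libraries held most of the excess of each. Fos at 0.03 µg/kg was at 1.21, 0.0639, 0.477, 35.2 and 1.80 CPM, so that the group held both the highest and the lowest of all 40 values. Fosb was at 0.340, 0.319, 0.238, 53.4 and 1.85 CPM, and Egr1 at 5.97, 3.19, 4.33, 169 and 35.4 CPM. Nr4a1 was at 12.8, 3.96, 3.38, 34.3 and 8.11 CPM. Outside replicates 4 and 5 the Fosb values lay within the vehicle range of 0 to 0.567 CPM. The log2 fold changes were 5.27 ± 1.15 for Fosb, 3.64 ± 0.89 for Fos, 3.43 ± 0.77 for Egr1 and 2.00 ± 0.55 for Nr4a1.

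At an unadjusted p under 0.05, 8 of 10 members passed edgeR's test at 0.03 µg/kg, against 5.67% of all genes, yet edgeR's adjusted p was 0.351 for Fosb, 0.351 for Egr1 and 0.445 for Fos. DESeq2 called 3 members there, Fosb, Egr1 and Fos, with adjusted p of 0.0149, 0.00901 and 0.0299. These were 3 of 7 genes it called, and it called 0.0404% of all genes. Without replicate 4 the log2 fold changes fell to 1.22 ± 0.84 for Fosb, 0.52 ± 0.58 for Fos, 1.59 ± 0.61 for Egr1 and 1.17 ± 0.50 for Nr4a1. Without replicates 4 and 5 they were 0.03 ± 0.94, -0.06 ± 0.64, 0.15 ± 0.56 and 1.09 ± 0.55. For Nr4a1 the libraries left were at 12.8, 3.96 and 3.38 CPM, against 2.02 to 4.31 CPM in vehicle. The first of these, replicate 1, had a sum of 420 CPM for 3 adrenal cortex markers, as described below.

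Between these ends the members showed little. At 0.1 µg/kg 2 of 10 estimates were above 0, and the median was -0.04 log2 units. At 0.3 µg/kg all 10 were above 0, with a median of 0.43, and replicate 1 held the second highest Fos (5.20 CPM) and Jun (47.7 CPM) of the series. At 1, 3 and 10 µg/kg, 9, 8 and 10 estimates were above 0, with medians of 0.11, 0.22 and 0.45. Over all genes the median stayed between -0.005 and 0.011 at every dose. Klf4 ranged from 6.61 to 13.3 CPM at 10 µg/kg, Dusp1 from 37.2 to 69.8 CPM and Atf3 from 1.14 to 2.83 CPM, each overlapping vehicle. Of these doses, 10 µg/kg gave the lowest adjusted p for Klf4 (0.41 ± 0.18 log2 units, edgeR, adjusted p = 0.232) and for Dusp1 (0.56 ± 0.27, adjusted p = 0.301). The comparisons share the 5 vehicle libraries.

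The 3 libraries with the most adrenal transcripts held the highest or second highest Nr4a1 of their groups. At 1 µg/kg it was at 3.39, 5.21, 3.88, 23.6 and 1.68 CPM, and the library at 23.6 CPM, replicate 4, had the highest sum of 3 adrenal cortex markers of the series, 437 CPM. Replicate 1 at 0.03 µg/kg, with Nr4a1 at 12.8 CPM, had the next highest, 420 CPM, and replicate 2 at 3 µg/kg, with Nr4a1 at 6.25 CPM, followed at 25.0 CPM. In the other 37 libraries that sum was at most 7.66 CPM, with Cyp11b1, an enzyme made in the adrenal cortex, at 0 in 35 of them and Cyp11a1 at 0 in 25. Nr4a1 was also high without them: replicate 4 at 0.03 µg/kg, with the highest Nr4a1 of all, had a sum of 5.55 CPM. Replicate 1 at 0.3 µg/kg (9.90 CPM), replicates 3 and 4 at 30 µg/kg (8.68 and 7.63 CPM) and replicate 5 at 0.03 µg/kg (8.11 CPM) were above the third of the adrenal libraries. The part of adrenal tissue in the Nr4a1 levels was not tested.

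A joint test over all 8 groups called 7 of the 10 members (Fos, Fosb, Junb, Egr1, Atf3, Nr4a1 and Zfp36), against 14.7% of all genes. Fosb had the lowest adjusted p (edgeR, 8.9e-06), followed by Egr1 (edgeR, 0.000404) and Fos (edgeR, 0.00257). Without replicate 4 at 0.03 µg/kg the joint test called 1 member, Zfp36 (edgeR, adjusted p = 0.0194), against 14% of all genes. Each of the other 6 joint calls was lost without that library; Junb was lost in 28 of the 40 fits without 1 library, and Atf3 also without replicate 5 at 0.03 µg/kg (edgeR, adjusted p = 0.120). Zfp36 lost its joint call without replicate 3, 4 or 5 at 30 µg/kg (edgeR, adjusted p = 0.111, 0.0714 and 0.0745). Without the 3 libraries high in adrenal markers, a choice made after seeing the data, the joint test called 7 members, Nr4a1 among them (edgeR, adjusted p = 0.00482).

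A trend over the rank of dose, from 0 for vehicle to 7 for 30 µg/kg, gave 2 calls in opposite directions. Klf4 rose by 0.06 ± 0.02 log2 units per step of rank (edgeR, adjusted p = 0.0248), where 11% of genes were called rising. That call was lost when any of 4 libraries was left out: replicates 1 and 2 of vehicle, and 1 and 3 of the highest dose (edgeR, adjusted p = 0.0551, 0.0504, 0.0509 and 0.0749). Fosb fell by 0.72 on the log2 scale per step (SE 0.17, edgeR, adjusted p = 0.00195), where 8.84% were called falling. The Fosb slope ended without replicate 4 at 0.03 µg/kg, at -0.05 ± 0.09 (edgeR, adjusted p = 0.785). In that fit Klf4 and Zfp36 were called rising, at 0.06 ± 0.02 and 0.08 ± 0.03 (edgeR, adjusted p = 0.0149 and 0.0360), where 10.6% of all genes were.

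Replicates 4 and 5 at 0.03 µg/kg were left out in a further fit, again chosen after seeing the data, because members were high in them. Both lie low in the dose rank, so this choice itself raises the members' slopes. The calls are therefore not a test of a rise. Without the 2 libraries, 5 members were called rising with dose rank, against 10.1% of genes. They were Fos (0.20 per step, edgeR, adjusted p = 0.0246), Atf3 (0.09, adjusted p = 0.0287), Zfp36 (0.08, adjusted p = 0.0481), Junb (0.07, adjusted p = 0.0161) and Klf4. Fos and Atf3 had slopes of -0.21 and -0.01 with all 40 libraries, neither called by edgeR. Without replicate 4 alone both were above 0, at 0.17 and 0.06, and not called by edgeR (adjusted p = 0.0532 and 0.277).

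The mouse numbers in the labels fall into 2 runs, 1 to 27 with 23 libraries and 28 to 53 with 17 libraries, each going through the doses in order; the labels do not call them batches. All 10 members were higher in the second run in a fit with dose, by a median of 0.37 on the log2 scale against 0.00 over all genes. None of the 10 was called by edgeR, against 0.64% of all genes, and 4 passed at an unadjusted p under 0.05, as did 2242 of the 17345 genes. Replicates 4 and 5 at 0.03 µg/kg lie in the second run; without them 2 passed, and the estimates of Fosb and Atf3 were below 0. DESeq2 called 1, Junb. The nearest to a call by edgeR was Junb, 0.43 ± 0.12 higher (edgeR, adjusted p = 0.0778). With the run as a term, edgeR called Zfp36, Klf4 and Junb at 30 µg/kg.

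Pairs of members were compared across libraries within doses. Log2 CPM was centred on each group's mean, and the 45 pairs were tested by permuting libraries within groups. With all 40 libraries, 11 pairs had an adjusted permutation p under 0.05, all 45 coefficients were above 0 and the median Pearson's r was 0.40. Without replicate 4 at 0.03 µg/kg, 6 pairs were called, all among the 11, and the median r was 0.16. Without centring on group means 36 pairs were called. Within mouse numbers 28 to 53 alone 0 were, at a median r of 0.44. Groups held so few libraries in that run that few distinct permutations existed, and the test could hardly call a pair. Differences between coefficients were not tested, and the share of called pairs among other genes was not computed.

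Of those 6 pairs, 5 joined Fos, Jun, Egr1 and Nr4a1. Fos with Egr1 had r = 0.84 and Spearman's rho = 0.67 (n = 40, adjusted permutation p = 0.000225), r = 0.68 without the 2 libraries farthest from the median of Fos, and r = 0.70 without replicate 4 at 0.03 µg/kg (adjusted permutation p = 0.00045). Fos with Jun had r = 0.83, rho = 0.55 and r = 0.63 without the 2 farthest libraries (adjusted permutation p = 0.00072). Jun with Egr1 had r = 0.78 and rho = 0.51 (adjusted permutation p = 0.00315), and r = 0.59 without the 2 farthest. Jun with Nr4a1 had r = 0.71, rho = 0.59 and r = 0.58 without the 2 farthest (adjusted permutation p = 0.00045). Egr1 with Nr4a1 had r = 0.69 and rho = 0.64 (adjusted permutation p = 0.00072), and r = 0.56 without the 2 farthest.

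The other called pair was Dusp1 with Zfp36, the feedback genes. It had r = 0.76 and rho = 0.77 (n = 40, adjusted permutation p = 0.000225), r = 0.69 without the 2 libraries farthest from the median of Dusp1, and r = 0.75 without replicate 4 at 0.03 µg/kg. Within the 2 runs of mouse numbers its r was 0.80 and 0.77. Neither gene had a called pair with any of the other 8 members. Their coefficients with those members ran from 0.04 (Dusp1 with Jun) to 0.41 (Zfp36 with Junb), and Zfp36 with Egr1 had 0.40, as large as the called pair of Jun with Klf4 (0.40). Replicate 5 at 0.3 µg/kg, for example, held 73.0 CPM of Dusp1 and 59.4 CPM of Zfp36, both the highest of their group, and replicate 3 at 30 µg/kg held 66.8 and 84.8 CPM, again both the highest.

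**Figure D3:**
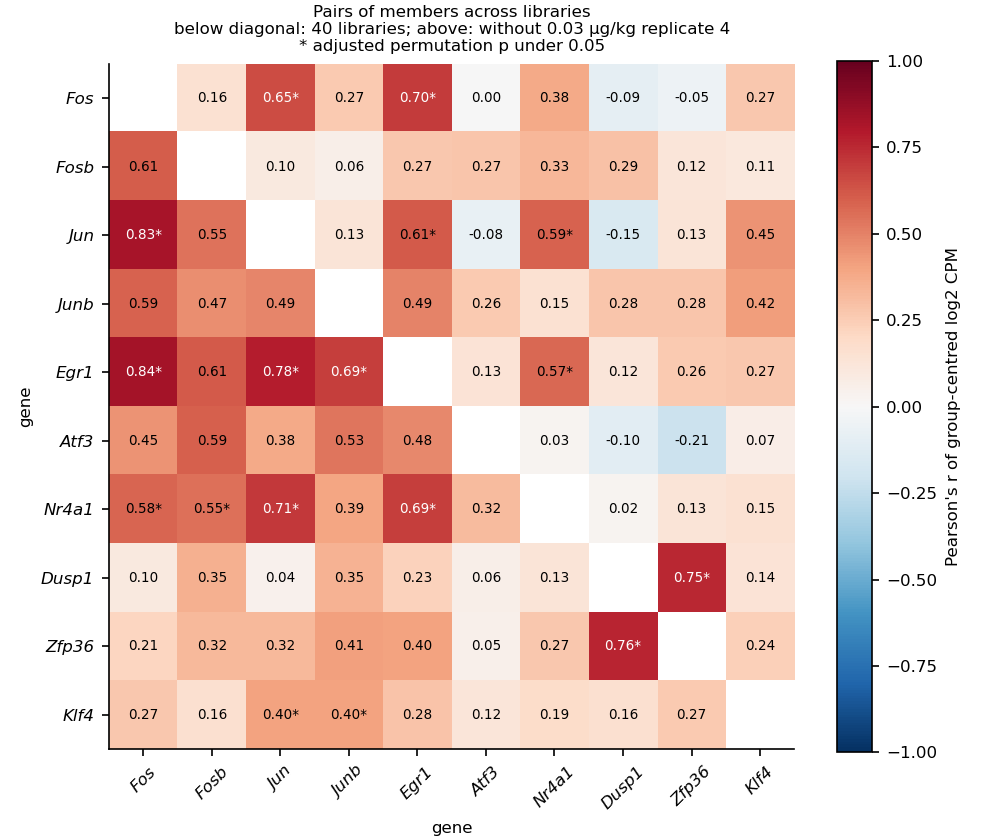
Pearson's r of group-centred log2 CPM for the 45 pairs of members, with all 40 libraries below the diagonal and without replicate 4 at 0.03 µg/kg above it; asterisks mark an adjusted permutation p under 0.05. Fos, Jun, Egr1 and Nr4a1 keep called pairs above the diagonal, as do Dusp1 and Zfp36 (r = 0.75).

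**Figure D4:**
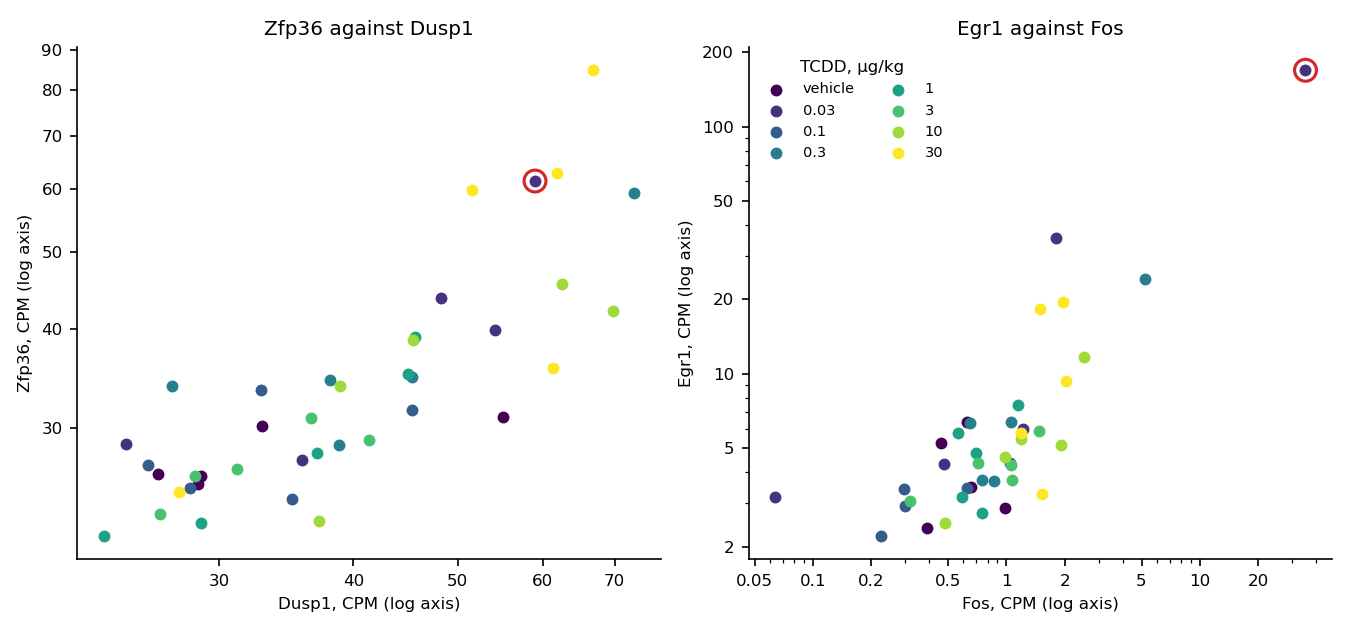
Zfp36 against Dusp1 (left) and Egr1 against Fos (right) in 40 libraries, in CPM on log axes, coloured by dose; the ring marks replicate 4 at 0.03 µg/kg. That library is at the far end for Fos and Egr1 (35.2 and 169 CPM) and inside the cloud for Dusp1 and Zfp36 (59.0 and 61.5 CPM).

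The members' levels were set against 5 measures of the libraries: total counts and the shares of mitochondrial, unassigned, unmapped and multiply mapped reads. None of 50 relations had an adjusted permutation p under 0.05 (the lowest was 0.353, for Zfp36 with the multiply mapped share, r = -0.43, n = 40), and 3 had an unadjusted permutation p under 0.05.

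The genes most like the members were sought among all others by Pearson's r with the mean of the standardised, group-centred member levels, over 40 libraries. Btg2 came first (r = 0.75), then Gm8126, Erf, a repressor of ETS targets (r = 0.65), Ier2 (r = 0.65) and Wars. Sema4c, Egr2, Slc25a23 and 1700123M08Rik followed among the first 10. Without replicate 4 at 0.03 µg/kg the first 10 were Cebpb (r = 0.68), Fosl2 (r = 0.67), Sf1, Supt5, Erf (r = 0.62), Arhgap31, Sirt2, Midn, Nek6 and Klf10. Only Erf was in both sets of 10.

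Genes related to the members, from 6 lists chosen with earlier results of these data known, were also followed at 30 µg/kg, where 1456 of all 17345 genes (8.39%) rose and 1310 fell. Of 9 tested AP-1 partners 5 rose (55.6%) and 0 fell: Fosl2 (23.3 ± 3.83 CPM in vehicle and 45.4 ± 12.3 CPM at this dose, a rise of 0.96 ± 0.17 log2 units; edgeR, adjusted p = 5.74e-05), Maff (1.64), Jdp2 (0.77), Mafg (0.33) and Mafk (0.41). Fosl2 is another FOS-type subunit, Jdp2 a repressive dimer partner, and the small MAF proteins pair with many bZIP factors. Of 42 other immediate early genes 14 rose (33.3%) and 0 fell, with a median log2 fold change of 0.41. The first 5 by adjusted p were Klf2 (0.70), Nfkbia (0.91, an inhibitor of NF-kappaB), Myc (1.07), Socs3 (1.31, a cytokine signalling inhibitor) and Ccn2 (1.15, a matrix protein). A difference between the share of members and the share of relatives called was not tested.

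Of 18 upstream regulators 2 were called (11.1%), near the share of all genes at this dose (15.9%). The gene that rose was, Elk3 (0.45 ± 0.11, an ETS partner of serum response factor, edgeR, adjusted p = 0.00192), and the gene that fell was Mapk14 (p38 alpha, by 0.17 on the log2 scale). Of 14 downstream targets 4 rose and 1 fell (35.7% called). Cd44, a hyaluronan receptor, went from 1.84 ± 1.24 to 11.8 ± 2.01 CPM (edgeR, adjusted p = 2.87e-10). Spp1 and Ccl2 also rose, by 0.42 and 1.94, and Nab2, a corepressor of EGR proteins, fell by 0.49 on the log2 scale.

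Of the 7 heat shock genes 4 fell at 30 µg/kg (57.1%) and 0 rose, where 1310 of all 17345 genes fell: Hspa8, Hsph1, Dnajb1 and Hsp90aa1 fell by 0.49, 0.59, 0.63 and 0.54 on the log2 scale. Over the dose rank 6 of 7 fell (85.7%, against 8.84% of all genes), Hspa1a and Hspa1b included. Of 5 integrated stress genes 1 rose at 30 µg/kg (20%, against 8.39% of all genes), Sesn2 (0.99 ± 0.24). Over all 95 related genes tested 25 rose and 6 fell at 30 µg/kg, and 26 rose and 10 fell over the dose rank.

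**Figure D5:**
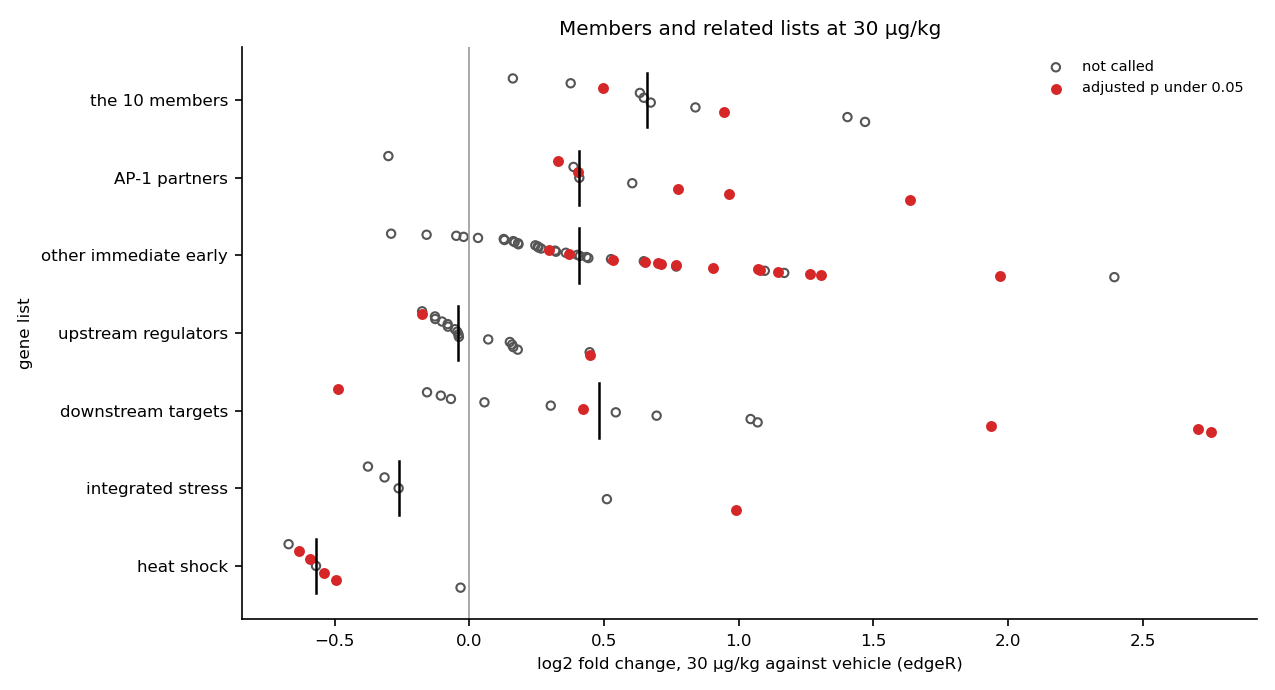
Log2 fold change at 30 µg/kg against vehicle (edgeR) for the 10 members and 6 related lists; each point is a gene, red where the adjusted p was under 0.05, and black bars are list medians. All 10 members lie above 0 and 2 are red, while 5 of 9 AP-1 partners are red above 0 and 4 of 7 heat shock genes below 0.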

How the data were processed

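Bulk RNA was sequenced as paired reads of 150 bp from 40 kidneys, 5 per group, per the labels. The authors deposited 1 file of whole-number gene read counts a library, laid out as STAR writes them. The submitters' processing notes name FastQC 0.11.7, Trimmomatic 0.39, STAR 2.7.3a and DESeq2, and list the builds GRCm39 and mm10 without saying which served these counts; the gene annotation is not given in the sources used here. The unstranded column was used, with the sense column as an alternative; 4 lines per file that name no gene were left out (unmapped reads made up 1.41 to 2.66% of reads). Sense counts made up 50.4 to 51.0% of the reads counted by strand, so that alternative has lower depth and does not separate strands. The series-wide table, which looks log2-scaled, was not used here. Identifiers were named with GENCODE M21 (52083 of 55359).

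Replicates were compared first: chi-square per degree of freedom ran from 7.34 to 87.9 over 80 pairs, so each library counted once. The mice of a group are separate animals, per the labels. In R 4.3.3, edgeR 4.0.16 filtered genes by group (filterByExpr), scaled them by TMM and fitted a robust quasi-likelihood model to all 40 libraries, with p-values adjusted by Benjamini-Hochberg over 17345 genes. Comparisons were each dose against vehicle, all 8 groups jointly, the rank of dose, and the runs of mouse numbers. Levels are CPM; standard errors are the log2 fold change over the root of F. Correlations used log2 CPM with a prior count of 2, centred on group means, and 100000 permutations within groups (Python 3.11.15, numpy 2.4.6). The fits were tested on simulated counts. No library was made to stand apart in them and no gene of low count was changed, so those cases are not covered. Precision is limited by low counts in Fos and Fosb; the labels name no molecular identifiers for the reads.

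The members and lists were chosen with earlier results of these data known. All 10 members were named in every comparison; of the related lists, called genes with the lowest adjusted p, at most 5 in each direction; and the 10 genes most like the members. A gene that this rule names is not reported here. Alternatives were DESeq2 1.42.0, RLE factors, no filter, sense counts, the run as a term, and leaving out libraries or groups; leaving out 2 or 3 named libraries was chosen after seeing the data.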

Additional observations from a re-analysis of the deposited data

Results flagged for a closer look

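In groups of 5, 14 of 88 sets of values (the 10 members and total gene counts, in each of 8 groups) had 1 library far from the other 4. For independent, normally distributed values chance would give about 4.4 (1 in 20). CPM values are skewed and the sets share libraries, so that number is only a rough guide. Replicate 4 at 0.03 µg/kg was the far value for Fos (35.17 CPM, next 1.80), Fosb (53.4 CPM, next 1.85), Jun (116 CPM, next 40.3) and Egr1 (169 CPM, next 35.4). Replicate 1 at 0.3 µg/kg was far above its group for Fos (5.20 CPM, next 1.05) and Egr1 (24.3 CPM, next 6.37). Nr4a1 stood out in replicate 4 at 1 µg/kg (23.6 CPM, next 5.21) and in replicate 2 at 3 µg/kg (6.25 CPM, next 3.64), both among the 3 libraries highest in adrenal markers. Dusp1 was far above the rest in vehicle replicate 5 (55.1 CPM, next 32.9), Zfp36 in replicate 5 at 0.3 µg/kg (59.4 CPM, next 34.8) and Klf4 in replicate 3 at 0.1 µg/kg (9.74 CPM, next 7.82). Total gene counts stood out as high in 3 libraries: 22659733 in replicate 2 at 0.1 µg/kg, 20292573 in replicate 1 at 1 µg/kg, and 24017319 in replicate 5 at 30 µg/kg. All 14 far values were the highest of their group.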

How the results depend on the processing

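No paired analysis was possible because the labels number the mice individually and give the groups no shared replicate numbers.

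With 1 library left out at a time, the members called stayed at 0 at each dose from 0.03 to 10 µg/kg. They ranged from 1 to 3 at 30 µg/kg, from 1 to 7 in the joint test, from 1 to 2 for the trend and from 0 to 1 between the runs of mouse numbers. Called pairs of members ranged from 6 to 14, related genes from 22 to 33 at 30 µg/kg and from 30 to 41 for the trend. At 30 µg/kg, 1 member was called with no filter (Zfp36), with sense counts (Zfp36), without the 3 libraries high in adrenal markers (Zfp36) and with the 10 libraries alone (Fos). Without replicates 4 and 5 at 0.03 µg/kg, edgeR called Junb, Egr1 and Zfp36 at 30 µg/kg. DESeq2 called 3 members at 0.03 µg/kg. With sense counts, which hold fewer reads, the joint test called 4 members, and Fosb did not pass the filter and was not tested. Without replicates 4 and 5 at 0.03 µg/kg the joint test called 2. Trend calls were 0 with sense counts (Fosb not tested), 1 with the run as a term and 1 without the 30 µg/kg group (Fosb, falling). They were 1 with DESeq2 (which gave Fosb no adjusted p, at a slope of -0.656). Without replicates 4 and 5 at 0.03 µg/kg, left out because members were high in them, they were 5. In that last fit 6 slopes changed sign from below to above 0. They were Fosb, called with all libraries (to 0.0314 per step), Fos and Atf3, called in this one (to 0.197 and 0.0926), and Jun, Egr1 and Nr4a1, called in neither (to 0.0353, 0.158 and 0.0488). Between the runs, 1 member was called with sense counts, 1 with DESeq2 and 5 with no filter, a fit in which edgeR gave 100% of genes infinite prior degrees of freedom. Related genes called fell to 14 at 30 µg/kg with 10 libraries alone and to 11 for the trend without the 30 µg/kg group. Called pairs numbered 36 without centring, 7 with mouse numbers 1 to 27, 0 with 28 to 53 and 6 without replicates 4 and 5 at 0.03 µg/kg. The 0 is from a run in which few distinct permutations existed. Related genes correlated with Fos went from 6 to 3 without replicate 4 at 0.03 µg/kg. RLE factors moved the median of all genes by at most 0.004 on the log2 scale. The cause of these changes was not tested. Of 4748 values of members under an alternative, 4634 kept their side of the threshold and 65 of those not called changed sign.

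Low depth limits Fosb, at 0 counts in 4 libraries, and Fos, at 1 count in its lowest; a fold of either depends on few reads outside replicate 4 at 0.03 µg/kg.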

Other observations

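Fos and Zfp36 were each set against all 95 related genes, group-centred over 40 libraries, in 190 tests chosen after the pairs of members had been seen. Zfp36 was correlated with 7 at an adjusted permutation p under 0.05, and 7 were called without replicate 4 at 0.03 µg/kg, the same 7. They were Csrnp1 (r = 0.72, rho = 0.69, r = 0.67 without the 2 farthest libraries), Plk3 (r = 0.65, rho = 0.56, 0.51), Klf2 (r = 0.62, rho = 0.62, 0.59), Ccn2 (r = 0.62, rho = 0.55, 0.42), Per1 (r = 0.60, rho = 0.54, 0.45), Gadd45g (r = 0.59, rho = 0.63, 0.56) and Elk1 (r = 0.52, rho = 0.55, 0.41). Per1 is a core clock gene, and Csrnp1, Plk3 and Gadd45g are early stress-response genes.

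Fos was correlated with 6 of the 95, and 3 of those were called without replicate 4 at 0.03 µg/kg: Ier2 (r = 0.69, rho = 0.50, r = 0.51 without the 2 farthest libraries), Klf6 (r = 0.54, rho = 0.61, 0.50) and Fosl2 (r = 0.44, rho = 0.61, 0.46). None of the 7 genes called with Zfp36 was called with Fos. The difference between the 2 sets of coefficients was not tested. The share of all genes correlated with Fos or Zfp36 at this threshold was not computed.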
